A study of Homo sapiens with 6 samples.

Results

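The miR-28, miR-151 and miR-708 family was followed in small RNA libraries of human melanoma cells treated for 24 hours with RSL3 combined with IFN-γ (3 libraries) or with RSL3 alone (3 libraries, the RSL3 monotreatment group). Its members were chosen by name and comprised 7 of the 1596 mature miRNAs in the count table, namely hsa-miR-28-3p, hsa-miR-28-5p, hsa-miR-151a-3p, hsa-miR-151a-5p, hsa-miR-151b, hsa-miR-708-3p and hsa-miR-708-5p (written below without the prefix). RSL3 triggers ferroptosis, a cell death by lipid peroxidation, by blocking the protective enzyme GPX4, and IFN-γ is a cytokine that activated T cells secrete. All libraries therefore came from cells that carried RSL3, and no untreated or IFN-γ-only cells were analysed here. The labels name the cells as A2058 whereas the methods of the study name A375, both established melanoma cell lines, and which of them was sequenced could not be settled. No source says whether replicates were separate cultures, so the spread behind each p-value is that between libraries and may be technical.

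A miRNA hairpin is cut by DROSHA and DICER into a duplex whose arms, 5p and 3p, can each be loaded into an Argonaute protein, and the seed, bases 2 to 8 of the loaded arm, governs target recognition. The hairpins of this family descend from LINE-2 transposable elements. Those of miR-28, miR-151a and miR-708 lie in introns of large genes, on the strand of the host, and can be made from its transcript. LPP and PTK2, the hosts of miR-28 and miR-151a, encode a LIM-domain protein of focal adhesions and focal adhesion kinase, and TENM4, the host of miR-708, encodes a transmembrane protein of the teneurin family. MiR-28 is known as a brake on the growth of B cells and lymphoma, miR-151a-5p as a promoter of migration in liver cancer cells, and miR-708 as a miRNA that the stress factor CHOP induces together with its host in mouse cells.

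RefSeq (GRCh38.p14) gave the mature sequence of 3 members, shown here with the seed in capitals because the seeds and the bases after them show how the arms are related. MiR-28-3p is at chr3:188688834-188688855, miR-708-3p at chr11:79402032-79402053 and miR-708-5p at chr11:79402077-79402099.
miR-28-3p: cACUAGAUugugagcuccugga
miR-708-3p: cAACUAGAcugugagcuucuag
miR-708-5p: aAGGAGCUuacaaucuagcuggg
The 3p arms of miR-28 and miR-708 share a run of 8 bases, ugugagcu, which starts at base 9 of miR-28-3p and base 10 of miR-708-3p. The seed of miR-708-3p is set off by 1 base from that of miR-28-3p, so the 3p arms do not share a seed. RefSeq sequences were matched to 1425 of the 1596 miRNAs, which leaves out 4 of the 7 members. Among those 1425, miR-3139 had the seed of miR-708-5p, and no other miRNA had the seed of any of the 3 members shown. MiR-28-5p, miR-151a-3p, miR-151a-5p and miR-151b are named only. Whether any of them has the seed of a member shown was therefore not compared, and the search does not settle which members share a seed.

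The libraries held 4383940 to 5367150 reads of miRNAs in the RSL3 combined with IFN-γ group and 4897890 to 6513382 in the RSL3 group. TMM factors, which scale each library for its composition, ran from 0.944 to 1.33 in the combined treatment libraries and from 0.861 to 0.913 in the RSL3 libraries, and replicate 2 of the combined treatment had the factor of 1.33. Markers of cell types were taken as sums only, so how much each single marker gave to a sum is not shown. Of the 7 markers of melanocytes and melanoma, all were in the table, and they summed to 118796 to 140003 unscaled CPM (reads in each 1000000 of the library) in the combined treatment group and 75841 to 106259 in the RSL3 group. In the combined treatment libraries the markers of epithelial cells summed to 109 to 183 CPM, those of endothelium to 305 to 679, those of blood cells to 79.6 to 441, those of muscle to 192 to 369 and the liver marker to 75.3 to 231. In the RSL3 libraries these sums were 142 to 173 CPM for epithelial cells, 467 to 646 for endothelium, 88.0 to 146 for blood cells, 162 to 1170 for muscle and 25.5 to 82.5 for liver. Their part in the results was not tested.

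On GRCh38, in GENCODE 29, the miR-28 hairpin lies at chr3:188688781-188688866 on the plus strand, in an intron of LPP. The miR-151a hairpin lies at chr8:140732564-140732653 on the minus strand, in an intron of PTK2. The miR-708 hairpin lies at chr11:79402022-79402109 on the minus strand, in an intron of TENM4. MiR-151b has a hairpin of its own at chr14:100109419-100109514 on the minus strand, opposite an intron of EVL, a gene of the actin cytoskeleton, and not within any of the 3 hosts.

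MiR-151a-3p and miR-28-3p made up nearly all reads of the family, and the other 5 members took 0.897% to 1.24% of its reads in the combined treatment group and 0.506% to 1.09% in the RSL3 group. The family as a whole took 2.36%, 5.70% and 3.50% of the reads of the combined treatment libraries (replicates 1 to 3) and 2.19%, 3.16% and 2.31% of those of the RSL3 libraries. Replicate 2 of the combined treatment held the largest share, while replicate 1 lay within the range of the RSL3 libraries and replicate 3 above it. Levels are given from here on as TMM-scaled CPM, with no correction for length since a miRNA is read whole. Reads amplified by PCR are not independent molecules, and whether different miRNAs were captured equally was not tested. Ranks, orders of level and arm ratios are therefore those of reads. Ranked by mean CPM over the 6 libraries among all 1596 miRNAs, miR-151a-3p stood at 7, miR-28-3p at 40, miR-28-5p at 183, miR-151a-5p at 196, miR-151b at 409, miR-708-3p at 547 and miR-708-5p at 660.

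**Figure D1:**
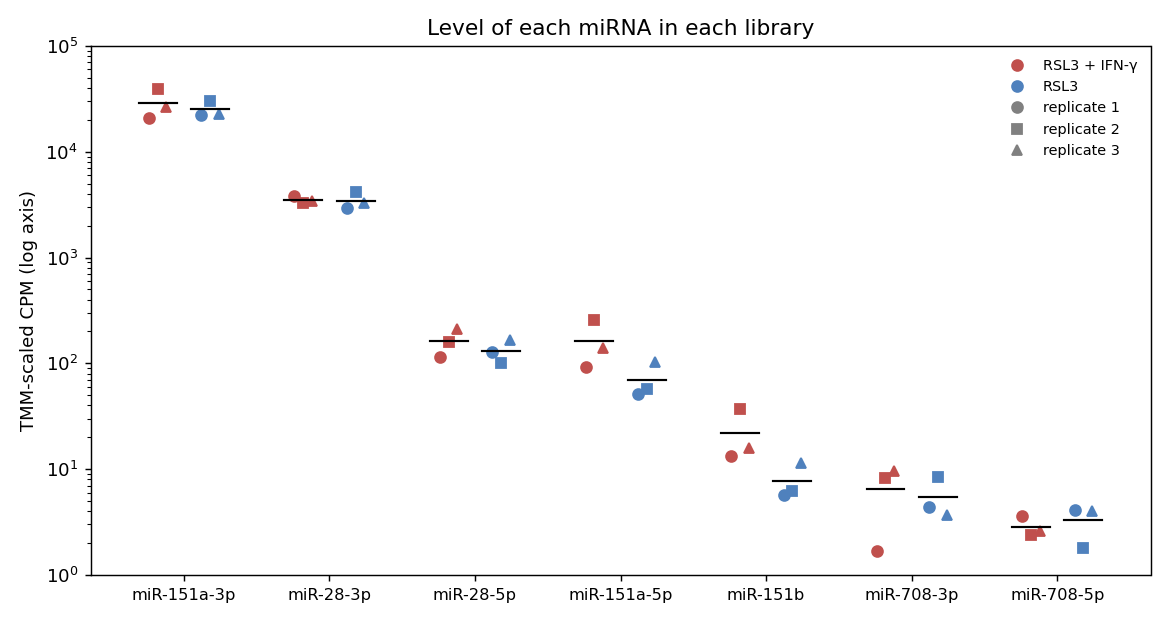
Level of each member in each library, in TMM-scaled CPM on a log axis, with the RSL3 + IFN-γ libraries left of the RSL3 libraries, a symbol for each replicate and a bar at the group mean. The groups separate only for miR-151b, at 13.3 CPM and above in the combined treatment against 11.4 CPM and below with RSL3 alone.

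None of the 7 members passed the test between treatments, and all 7 were tested. The largest differences were those of miR-151a-5p and miR-151b, which are known to share most of their sequence. Their log2 fold changes were 1.21 and 1.49, while the abundant miR-151a-3p and miR-28-3p were near 0. The test was edgeR's quasi-likelihood test on raw counts over 758 miRNAs, two-sided, and a miRNA was called at a Benjamini-Hochberg adjusted p under 0.05. It called 0 of the 7, where 4.75% of all tested miRNAs were called (2.51% higher and 2.24% lower). At an unadjusted p under 0.05, 2 of the 7 were higher and 0 lower, against 12.8% of all tested miRNAs higher and 13.1% lower. The 2 were miR-151a-5p and miR-151b, which may hold the same reads and do not count as separate evidence. DESeq2 called the same 2, where it called 7.93% of the miRNAs with an adjusted p as higher. Standard errors of the log2 fold changes ran from 0.223 for miR-28-3p to 0.572 for miR-708-3p, with 0.394 for miR-151a-5p and 0.447 for miR-151b. The median log2 fold change was 0.27 over the 7 members and −0.04 over all tested miRNAs.

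MiR-151a-3p, the major arm of the PTK2-hosted hairpin, had 20969, 39167 and 26500 CPM in the combined treatment libraries (replicates 1 to 3), against 22278, 30255 and 22824 CPM in the RSL3 libraries. The groups overlapped, with the highest and the lowest value both in the combined treatment. The log2 fold change was 0.20 (95% interval −0.40 to 0.80, adjusted p = 0.679 from edgeR), and −0.090 without replicate 2 of the combined treatment.

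MiR-151a-5p, the minor arm, was read 380, 1496 and 865 times in the combined treatment libraries and 258, 258 and 582 times in the RSL3 libraries. On the CPM scale this was 91.8, 256 and 140 in the combined treatment libraries, against 50.9, 57.7 and 102 in the RSL3 libraries. Of the combined treatment libraries, 2 lay above every RSL3 library, and replicate 1 lay below RSL3 replicate 3. Within each replicate number the combined treatment library was the higher one, in 3 of 3. The means were 162 ± 84.2 CPM in the combined treatment and 70.2 ± 27.7 CPM with RSL3 alone (SD, n = 3 each), with a log2 fold change of 1.21 (95% interval 0.34 to 2.08, unadjusted p = 0.0112 and adjusted p = 0.0890 from edgeR).

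The difference of miR-151a-5p passed or missed the threshold with the settings. It passed with DESeq2 (log2 fold change 1.23, adjusted p = 0.0140), with library totals in place of TMM (1.66, adjusted p = 0.0458 from edgeR), without the filter on low counts (1.23, adjusted p = 0.00189 from edgeR) and without replicate 1 of the combined treatment (adjusted p = 0.0183 from edgeR). Under these edgeR settings 7.92%, 3.13% and 5.52% of all tested miRNAs were called higher. With single libraries left out the log2 fold change ran from 0.71, without replicate 2 of the combined treatment, to 1.56, without RSL3 replicate 3, and adjusted p from 0.0183 to 0.317. With the replicate number as a block it was 1.14 (adjusted p = 0.0828 from edgeR), where 5.15% of all tested miRNAs were called higher, and the block raised the number of called miRNAs over the whole table from 36 to 82. Fold changes are relative to the scaling, and the whole table had a median of −0.04 under TMM, 0.33 under library totals and −0.13 under upper-quartile factors. Above that median, miR-151a-5p stood at 1.25, 1.32 and 1.24.

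MiR-151b is known to share most of its sequence with miR-151a-5p, though the sequences of these entries were not compared here. It had 13.3, 36.7 and 15.8 CPM in the combined treatment libraries, against 5.72, 6.26 and 11.4 CPM in the RSL3 libraries. It was the only member whose groups did not overlap, where 29.8% of all tested miRNAs had groups apart in one direction or the other. The log2 fold change was 1.49 (95% interval 0.50 to 2.48, unadjusted p = 0.00710 and adjusted p = 0.0750 from edgeR). It passed under the same 4 alternatives as miR-151a-5p, at an adjusted p of 0.0151 with DESeq2 and of 0.0383, 0.00167 and 0.0230 in that order with edgeR. Without replicate 2 of the combined treatment the log2 fold change was 0.89 (adjusted p = 0.260 from edgeR), and with the replicate block it was 1.39 (adjusted p = 0.0912 from edgeR).

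Whether a read that matches both miR-151a-5p and miR-151b was counted for one or both is not stated in any source, so their values are uncertain one by one and they do not count as separate evidence. For every 100 reads of miR-151a-5p there were 14.5, 14.4 and 11.3 reads of miR-151b in the combined treatment libraries, against 11.2, 10.9 and 11.2 in the RSL3 libraries. The RSL3 libraries thus differed little among themselves although miR-151a-5p itself ran from 50.9 to 102 CPM among them. The mean log2 ratio was −2.91 ± 0.201 in the combined treatment and −3.17 ± 0.0270 with RSL3 alone (SD, n = 3 each), a difference of 0.26 (exact permutation test, two-sided, p = 0.1, the smallest that 3 libraries against 3 can give). With the reads of both entries added together the log2 fold change was 1.24 (adjusted p = 0.0869 from edgeR).

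**Figure D2:**
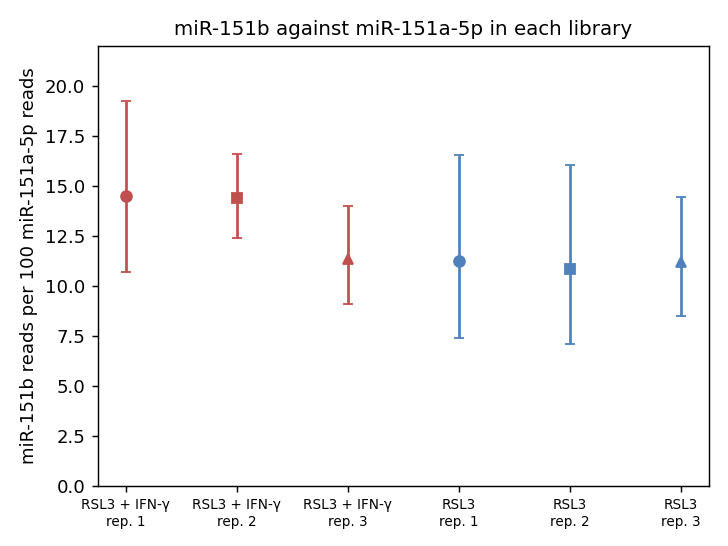
Reads of miR-151b per 100 reads of miR-151a-5p in each library, RSL3 + IFN-γ left of RSL3, with exact 95% intervals that cover counting error only. All 6 values lie between 10.9 and 14.5, and every interval overlaps every other one.

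MiR-28-3p, the major arm of the LPP-hosted hairpin, had 3838, 3245 and 3448 CPM in the combined treatment libraries, against 2959, 4151 and 3261 CPM in the RSL3 libraries. The combined treatment values lay wholly within the range of the RSL3 values. The means were 3510 ± 301 CPM in the combined treatment and 3457 ± 620 CPM with RSL3 alone (SD, n = 3 each), with a log2 fold change of 0.02 (adjusted p = 0.951 from edgeR). The 95% interval of −0.47 to 0.51 holds under TMM scaling only. With library totals the log2 fold change was 0.37, and with upper-quartile factors its sign turned (−0.085).

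MiR-28-5p, the minor arm, had 114, 161 and 210 CPM in the combined treatment libraries, against 128, 101 and 167 CPM in the RSL3 libraries. Replicate 3 was the highest library in each group, and the groups overlapped. The log2 fold change was 0.29 (95% interval −0.34 to 0.93, adjusted p = 0.566 from edgeR).

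Both arms of miR-708, the TENM4-hosted hairpin, were rare. MiR-708-3p was read 7, 48 and 59 times in the combined treatment libraries and 22, 38 and 21 times in the RSL3 libraries. This came to 1.69, 8.20 and 9.53 CPM in the combined treatment libraries, against 4.34, 8.50 and 3.68 CPM in the RSL3 libraries. The combined treatment libraries held both the lowest value and the highest, and the log2 fold change was 0.27 with a 95% interval of −0.99 to 1.54 (adjusted p = 0.794 from edgeR). MiR-708-5p was read 15, 14 and 16 times in the combined treatment libraries and 21, 8 and 23 times in the RSL3 libraries, or 3.63, 2.39 and 2.58 CPM in the combined treatment against 4.14, 1.79 and 4.03 CPM with RSL3 alone. Its log2 fold change was −0.24 with a 95% interval of −1.32 to 0.85 (adjusted p = 0.791 from edgeR), and turned its sign with library totals (0.12).

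**Figure D3:**
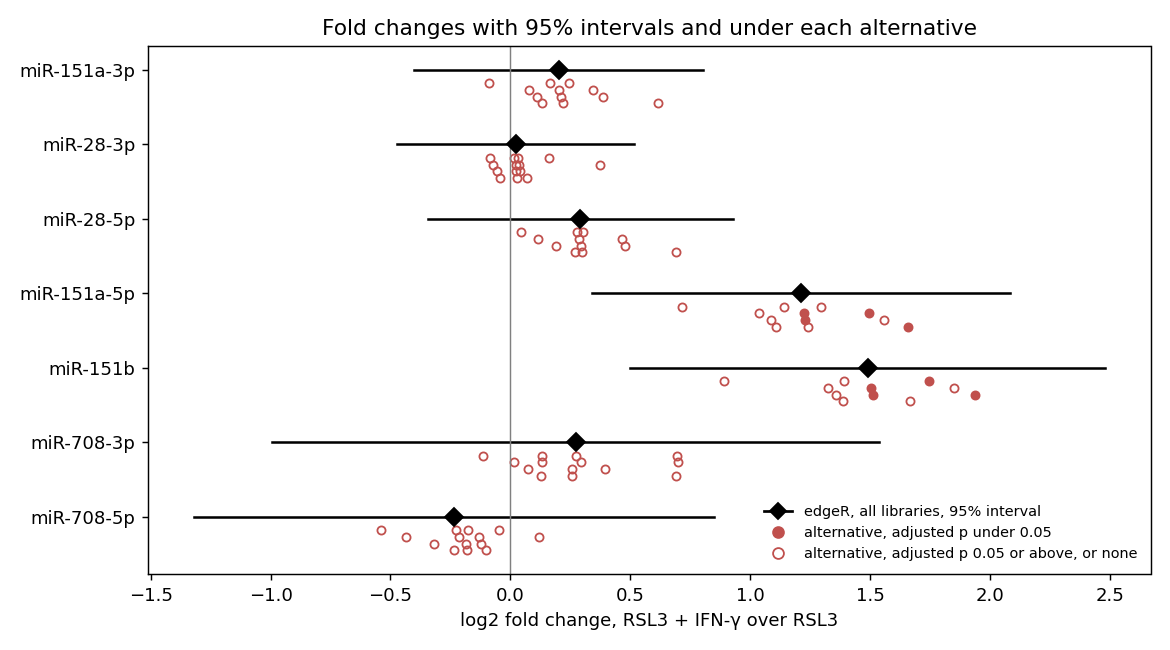
Log2 fold change of each member, RSL3 + IFN-γ over RSL3, with edgeR over all libraries (diamond, with its 95% interval) and under each alternative (circles below it, spread vertically for legibility, filled where the adjusted p was under 0.05). The intervals of miR-151a-5p (0.34 to 2.08) and miR-151b (0.50 to 2.48) lie above 0, and those of the other 5 members include 0.

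In the order of levels, miR-151a-3p stood above miR-28-3p and miR-28-3p above both minor arms in every library. MiR-28-5p and miR-151a-5p overlapped in both groups, at 114 to 210 and 91.8 to 256 CPM in the combined treatment and at 101 to 167 and 50.9 to 102 CPM with RSL3 alone. MiR-151b lay above both arms of miR-708 in the combined treatment libraries, while in the RSL3 libraries its range of 5.72 to 11.4 CPM overlapped that of miR-708-3p (3.68 to 8.50 CPM). The arms of miR-708 overlapped each other in both groups. Among replicates, the coefficient of variation was lowest for miR-28-3p in the combined treatment, at 8.58%, while with RSL3 alone miR-151a-3p (17.7%) and miR-28-3p (17.9%) had the lowest values. It was highest for miR-708-3p, at 64.8% in the combined treatment and 47.5% with RSL3 alone. That of miR-151a-5p was 51.9% in the combined treatment and 39.4% with RSL3 alone, where the medians were 19.9% in the combined treatment and 17.7% with RSL3 alone over the 205 tested miRNAs that averaged 100 CPM or more.

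The arms were next compared within each library as the log2 of 3p over 5p reads, a ratio that needs no scaling. The 3p arm dominated in miR-151a and miR-28. In miR-708 the arm with more reads differed between libraries, with a mean log2 ratio of 0.78 over all 6. Of 181 hairpins whose arms both averaged 10 or more reads, miR-151a ranked 1 by this ratio over the 6 libraries, miR-28 ranked 26 and miR-708 ranked 68, and 43.6% of the hairpins had more 3p than 5p reads. None of the 3 hairpins passed limma's test of the difference between treatments, which called 0 of the 181 (0.00%) at an adjusted p under 0.05 and 35 (19.3%) at an unadjusted p under 0.05. The exact permutation test, two-sided, gave p = 0.2 for miR-151a, 0.6 for miR-28 and 1 for miR-708, where 0.1 is the smallest that 3 libraries against 3 can give.

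The miR-151a hairpin gave 228, 153 and 190 reads of the 3p arm for each 5p read in the combined treatment libraries, against 438, 524 and 224 in the RSL3 libraries. RSL3 replicate 3 lay with the combined treatment libraries, just below the highest of them, and the other 2 RSL3 libraries stood above all of them. The mean log2 ratio was 7.55 ± 0.287 in the combined treatment and 8.54 ± 0.645 with RSL3 alone (SD, n = 3 each), a difference of −0.98 (standard error 0.421, 95% interval −1.94 to −0.02, unadjusted p = 0.0460 and adjusted p = 0.246 from limma). The difference stayed negative with each library left out, from −1.35 without RSL3 replicate 3 to −0.74 without RSL3 replicate 2. Of the 181 hairpins, 16 had a difference as low as this or lower, and the median difference was 0.13. In shares, the 3p arm took 99.6%, 99.4% and 99.5% of the reads of the hairpin in the combined treatment libraries and 99.8%, 99.8% and 99.6% in the RSL3 libraries. With the miR-151b reads added to the 5p arm, the difference in mean log2 ratio was −1.01 (adjusted p = 0.2335 from limma). The log2 fold changes of the arms, 0.20 for 3p and 1.21 for 5p, come from the same reads. The arm ratio is therefore not separate evidence from them.

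The miR-28 hairpin gave 33.6, 20.2 and 16.4 reads of the 3p arm for each 5p read in the combined treatment libraries, against 23.1, 41.2 and 19.5 in the RSL3 libraries. The ranges overlapped over most of their length. The difference of the mean log2 ratio was −0.24 (standard error 0.439, 95% interval −1.25 to 0.76, adjusted p = 0.771 from limma), with a sign that turned without RSL3 replicate 2 (0.073).

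In the miR-708 hairpin the 3p arm took 31.8%, 77.4% and 78.7% of the reads in the combined treatment libraries, against 51.2%, 82.6% and 47.7% in the RSL3 libraries. Exact 95% intervals ran from 13.9% to 54.9% in replicate 1 of the combined treatment and from 68.6% to 92.2% in RSL3 replicate 2. These are the libraries with the lowest and the highest share, and their intervals did not overlap. Within the combined treatment, the interval of replicate 2 (65.0% to 87.1%) did not overlap that of replicate 1 either. The intervals cover counting error only and treat each read as independent. Reads amplified by PCR are not independent molecules, so the intervals may be too narrow. Whether libraries differed by more than counting error was not tested. The difference of the mean log2 ratio was 0.14 (standard error 0.883, 95% interval −1.87 to 2.16, adjusted p = 0.939 from limma).

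In RSL3 replicate 2 all 3 hairpins had their highest ratio of 3p over 5p reads, where 18.2% of the 181 hairpins had theirs in that library. The lowest ratio of each fell in a different library of the combined treatment, in replicate 1 for miR-708, replicate 2 for miR-151a and replicate 3 for miR-28. How many of the 181 hairpins had their lowest ratio in these libraries was not counted. These placings of the highest and lowest ratios were noticed after the values were seen and carry no test.

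**Figure D4:**
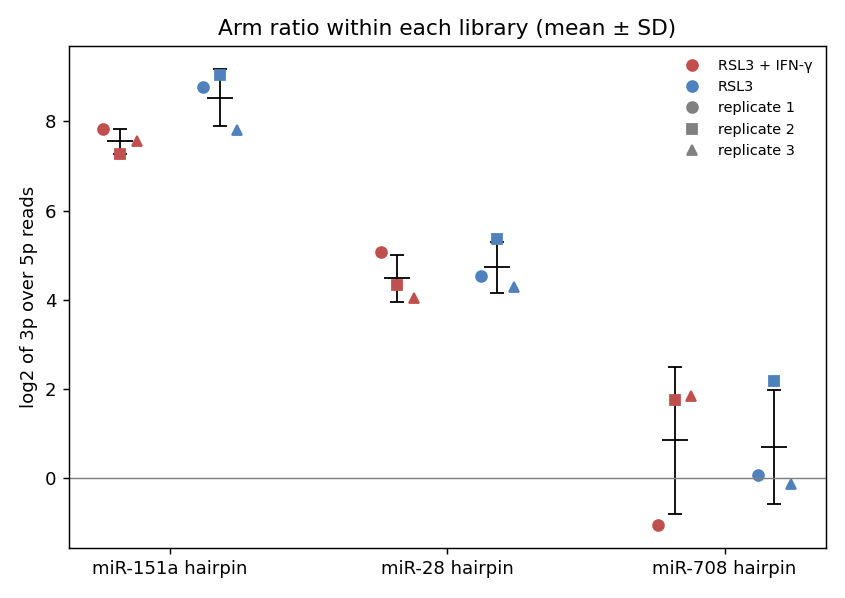
Log2 of 3p over 5p reads of the miR-151a, miR-28 and miR-708 hairpins in each library, RSL3 + IFN-γ left of RSL3, with the mean and SD of each group (n = 3). The miR-151a points of the combined treatment lie between 7.26 and 7.83 and those of RSL3 between 7.81 and 9.03, and the miR-28 and miR-708 groups overlap widely.

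**Figure D5:**
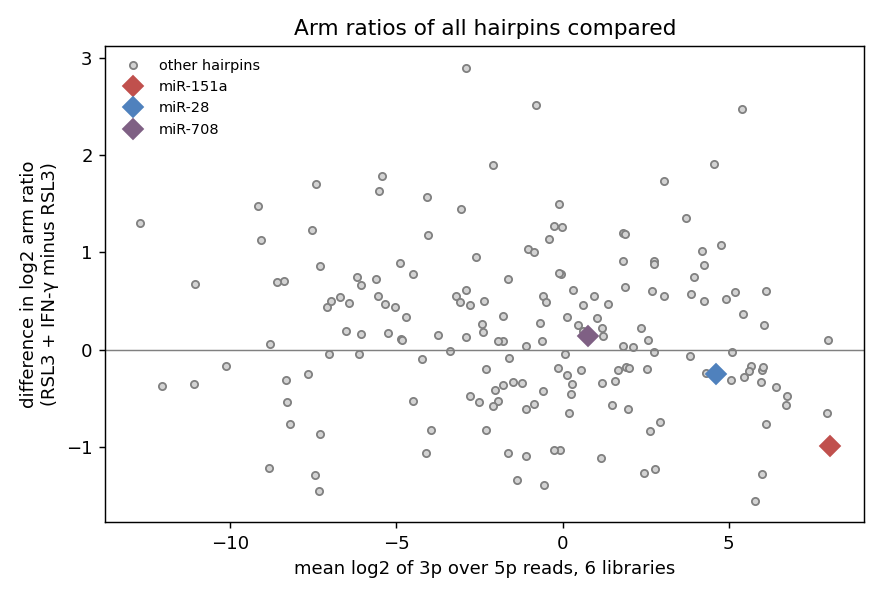
Difference in log2 arm ratio between treatments (RSL3 + IFN-γ minus RSL3) against the mean log2 ratio of 3p over 5p reads, for 181 hairpins, with the hairpins of the family as diamonds. MiR-151a lies at the right edge, where the 3p arm dominates most, with a difference of −0.98, while miR-28 (−0.24) and miR-708 (0.14) lie near 0.

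Other hairpins described as descending from LINE-2 elements were set beside the family, and none of their arms passed the test. Of 19 listed arms 14 were in the table and 9 were tested, and edgeR called 0 of them in either direction (1 lower and 0 higher by an unadjusted p under 0.05, and 0 with DESeq2). Over all tested miRNAs edgeR called 4.75%, and at an unadjusted p under 0.05 13.1% were lower and 12.8% higher. DESeq2 called 91 of the 605 miRNAs with an adjusted p. Counts this small among 9 arms do not set the list apart from all tested miRNAs. The median log2 fold change of the 9 arms was −0.48, against −0.04 over all tested miRNAs, and their values ranged from −0.74 to 0.08. Both arms of miR-374a, of miR-374b and of miR-616 are among the 9, so these values do not come from 9 separate hairpins. MiR-421, the most abundant of them, averaged 68.9 ± 14.1 CPM in the combined treatment and 103 ± 14.4 CPM with RSL3 alone (SD, n = 3 each), with a log2 fold change of −0.58 (adjusted p = 0.175 from edgeR). MiR-374a-5p, next in level, averaged 64.0 ± 52.3 CPM in the combined treatment and 94.5 ± 43.7 CPM with RSL3 alone (SD, n = 3 each), with a log2 fold change of −0.56 (adjusted p = 0.558 from edgeR). MiR-3139, which carries the seed of miR-708-5p, had 2 to 12 reads in a library and did not reach the filter.

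The miRNAs most like the main members in pattern were sought by Pearson's correlation of log2 CPM over the 6 libraries, among 201 other miRNAs that averaged 100 CPM or more. The same libraries and scaling enter every value, and the correlations are given as a description. Closest to miR-151a-5p were miR-181a-2-3p (r = 0.98), miR-512-3p (r = 0.95) and miR-27a-3p (r = 0.92). Closest to miR-151a-3p were miR-520a-3p (r = 0.87), miR-3615 (r = 0.86) and miR-873-3p (r = 0.86), and closest to miR-28-3p were miR-629-5p (r = 0.88), miR-30c-2-3p (r = 0.88) and miR-148a-5p (r = 0.75). Within the family, the 2 arms of one hairpin were correlated at r = 0.61 for miR-151a, −0.52 for miR-28 and −0.75 for miR-708, against 0.99 for miR-151a-5p and miR-151b.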

How the data were processed

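Small RNA libraries were sequenced on an Illumina HiSeq instrument, and reads were counted for each mature miRNA. Bowtie 1.1.1, bcl2fastq, edgeR and the build GRCh38 appear in the submitters' processing notes, and no source states the miRBase release or how reads matching more than one miRNA were treated. The labels name a small RNA library kit and the methods of the study a directional RNA kit. In the table the authors deposited, the raw read counts of each library were used, and the normalized signal, fold changes and p-values of the authors were not. Groups and replicate numbers came from the sample titles.

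The test of the counts used edgeR 4.0.16 under R 4.3.3 (quasi-likelihood, TMM). Its low-count filter (minimum count 10, minimum total 15) kept 758 of 1596 miRNAs. Alternatives used library totals, upper-quartile factors, DESeq2 1.42.0, no filter, a GC correction, the replicate number as a block and each library left out. Arm ratios, with 0.5 reads added to each arm, were tested with limma 3.58.1. The tests were tried on simulated data first. Libraries of the same number deviated together from their group means, with correlations of 0.227, 0.217 and 0.207 across miRNAs, each above the 0.1 taken as pairing, although no source says what the numbers stand for. All 7 members are named. Listed LINE-2 arms are named where they passed the test and otherwise for the 2 highest levels, and the 3 closest patterns are named for miR-28-3p, miR-151a-3p and miR-151a-5p. Members and lists were chosen with earlier results of these data known.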

Additional observations from a re-analysis of the deposited data

How the results depend on the processing

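The number of members called higher was 0 in the reported test, where 2.51% of all tested miRNAs were called higher. It was 2, miR-151a-5p and miR-151b, with library totals, with DESeq2 and without the filter on low counts. In that order 7.92%, 7.93% and 3.13% of all miRNAs with an adjusted p were called higher. The number of members called higher ran from 0 to 2 with single libraries left out, and no member was called lower under any of these alternatives. Over all tested miRNAs, 36 of 758 were called, and 71 of 758 with library totals and 82 of 758 with the replicate block. DESeq2 called 91 of the 605 miRNAs with an adjusted p, and the fit without the filter called 106 of 1596. Removing the GC trend together with the replicate block gave 14 calls, among tested miRNAs with a matched sequence. Single libraries left out gave 0 to 95 calls, the 95 being of 815 without replicate 1 of the combined treatment. The 0 came without RSL3 replicate 1, where 124 had an unadjusted p under 0.05. Higher and lower calls numbered 19 and 17 in the reported test, 60 and 11 with library totals, 15 and 24 with upper-quartile factors and 16 and 8 with the GC trend removed. The replicate block changed no call of a member or a hairpin.

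Log2 fold changes near 0 changed sign. That of miR-28-3p was −0.085 with upper-quartile factors and −0.073 to 0.160 with single libraries left out, that of miR-708-5p was 0.12 with library totals, and those of miR-151a-3p and miR-708-3p ran from −0.090 to 0.386 and from −0.115 to 0.698 with single libraries left out. The arm ratio difference ran from −0.539 to 0.073 for miR-28 and from −0.358 to 1.09 for miR-708. The cause was not tested. The GC correction covered miR-28-3p, miR-708-3p and miR-708-5p of the family (log2 fold changes 0.02, 0.40 and −0.18). It could not be applied to the members without a matched sequence. Among these are miR-151a-5p and miR-151b, so how their differences depend on it is not known. The miR-708 arms had 7 to 59 reads in a library, so their values carry the largest relative counting error of the family.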
